A study of Mus musculus with 4 samples.

Results

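Pre-mRNA splicing genes of mouse hematopoietic stem cells were compared between wild-type and Dis3-/- libraries. Members were all genes whose symbol begins with Snrp, Sf3a, Sf3b, Prpf, Srsf, Hnrnp or U2af. The rule reads names only, but this group was chosen with earlier results of these data known. The rule found 68 of the 24411 genes in the deposited tables. They fall into 8 Sm genes, 4 genes of proteins specific to the U1 or U2 particle, 9 SF3 genes, 3 U2AF genes, 13 Prpf genes, 11 Srsf genes and 20 Hnrnp genes.

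Pre-mRNA splicing removes introns by means of small nuclear ribonucleoproteins (snRNPs), each a small nuclear RNA bound by proteins of its own and by a ring of Sm proteins or, for U6, of the related LSm proteins. The U1 particle binds the 5′ splice site, U2AF and the U2 particle with its SF3A and SF3B subcomplexes mark the 3′ end of the intron, and the U4, U5 and U6 particles with the Prpf proteins join to form the active spliceosome. SR proteins (Srsf genes) and heterogeneous nuclear ribonucleoproteins (Hnrnp genes) bind the transcript and shift the choice of splice sites, often in opposite directions. Dis3 is a catalytic subunit of the RNA exosome, which digests RNA starting at the 3′ end.

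The study holds 4 libraries, 2 per genotype, all on a C57BL/6 background. Donor marrow was Dis3fl/fl for the wild-type group and Dis3fl/fl;Mx-Cre for the Dis3-/- group, so that the wild-type group carried the floxed alleles without Cre. In both groups 5000000 marrow cells were grafted into lethally irradiated CD45.1 recipients, and 300 µg of pIpC, a synthetic RNA that induces interferon and through it the Mx promoter, was given 4 weeks later on days 0 and 2. The protocol text is common to both genotypes, and no label states by mouse that wild-type recipients were injected. On day 4, 100 cells per library were sorted as Lineage-EPCR+CD150+CD48- and read by RamDA-seq, a total RNA method primed with not-so-random primers. The Mx promoter responds to interferon in many tissues, the hosts' own cells carry no transgene, and whether any were among the sorted cells is not given in the labels. The design text gives 2 mice, and nothing else says how replicates were separated.

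Depth was 6818535 and 6251761 expected counts in the wild-type libraries and 6085367 and 6442740 in the Dis3-/- libraries, with 14767 to 14868 genes above 0. Dis3 stood at 55.8 and 53.1 CPM (counts scaled to a common library size, with TMM factors) in wild-type libraries against 23.5 and 30.1 CPM after Cre, a log2 fold change of -1.02 ± 0.14 (SE; edgeR adjusted p = 2.58e-04); the labels do not name the floxed part of the gene. The transcripts for the sort markers were present in every library, with log2 fold changes of 0.04 for Procr (EPCR; edgeR adjusted p = 0.853), -0.10 for Slamf1 (CD150; edgeR adjusted p = 0.787) and -0.57 for Cd48 (edgeR adjusted p = 0.0627). Of 13 stem cell marker genes, 1 rose (Ly6a) and 5 fell (among them Kit, Hlf, Fgd5 and Gata2, named after their values were seen), and their summed level was 3900 and 3509 CPM in wild-type against 2872 and 2824 CPM in Dis3-/- libraries. Cell cycle genes moved with the genotype. All 30 listed genes of G2 and mitosis rose, with sums of 1085 and 1300 CPM against 2862 and 3108 CPM, and 22 of 24 genes of S phase (all but Gins2 and Rfc2) rose, with sums of 3237 and 3211 CPM against 5206 and 4836 CPM. The summed markers of other cell types were 125.2 to 173.6 CPM for erythroid cells (Hba-a2 and Hbb-bs at 0), 154.4 to 260.3 CPM for megakaryocytes, 21.7 to 35.5 CPM for granulocytes (Ctsg at 0), 49.7 to 56.9 CPM for monocytes and macrophages (Ly6c2 at 0), 12.6 to 16.7 CPM for B cells (Ms4a1 and Ebf1 at 0) and 61.7 to 86.6 CPM for T and NK cells (Cd3e, Cd3g and Ncr1 at 0), with overlapping genotypes except for granulocytes and B cells, whose Dis3-/- sums were both lower. Mast cell markers summed to 7.34 and 12.8 CPM in wild-type against 5.21 and 1.72 CPM in Dis3-/- libraries (Mcpt8 and Ms4a2 at 0), and endothelial and stromal markers to 37.4 and 27.6 CPM against 8.57 and 11.6 CPM. Single genes, named after their values were seen, made up most of several sums. Pdgfrb stood at 33.5 and 22.2 CPM in wild-type against 5.88 and 9.21 CPM in Dis3-/- libraries. Cdh5, Pdgfra, Lepr, Cxcl12 and Col1a1 of the same list were at most 0.468 CPM in any library. Nkg7 made up most of the T and NK sum, Cpa3 of the mast cell, Prtn3 of the granulocyte and Cd79b of the B cell sum. The part of the cell cycle genes and of these marker lists in the results on splicing genes was not tested. In bulk samples, more cells of a type and more RNA of a gene per cell cannot be told apart.

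The splicing genes rose as a group and none fell. Of 67 members tested (Srsf12 was under the filter on low counts), 41 rose in Dis3-/- cells at an edgeR adjusted p below 0.05, 0 fell and 26 did not pass. Among all 12244 genes tested, 12.7% rose and 10.2% fell. At an unadjusted p below 0.05 the edgeR fit put 50 members higher and 1 lower. The median log2 fold change of the tested members was 0.35, beside a median of 0.00 over all genes tested, and single members ranged from -0.23 to 0.99. In 57 members both Dis3-/- libraries lay above both wild-type libraries and in 5 (Sf3b1, Prpf18, Prpf40b, Prpf39 and Srsf5) both lay below, where 31.9% and 30.5% of all tested genes did so. Together the members took 1.19% and 1.17% of counts in wild-type libraries and 1.45% and 1.40% in Dis3-/- libraries, so that the genotypes did not overlap. DESeq2 called 28 members higher (7.67% of the genes it gave an adjusted p), and a limma fit on log2(TPM + 1) called 30 (8.79% of genes). Leaving out each library in turn kept 25 of the 41 calls throughout.

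**Figure D1:**
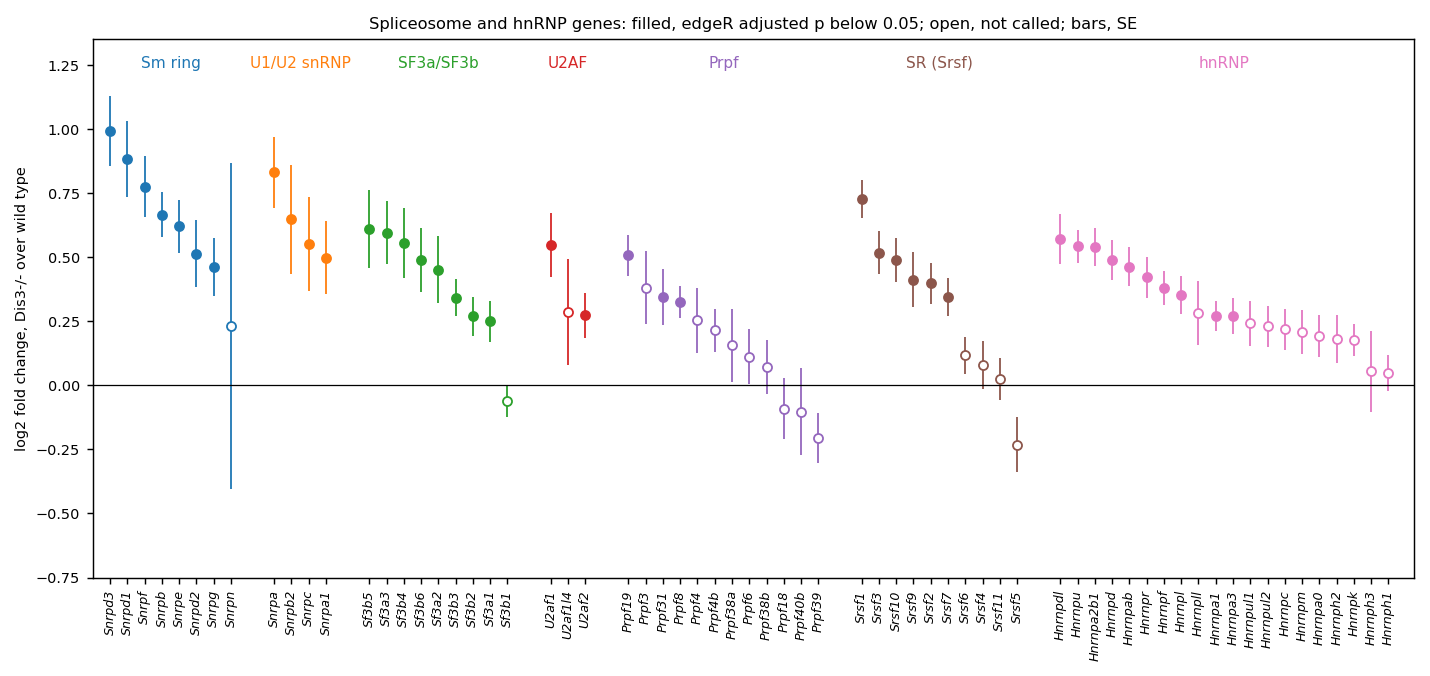
Log2 fold change (Dis3-/- over wild type) of the tested members, grouped by class, except 1 not reported here. Points are edgeR estimates, filled where the adjusted p was below 0.05 and open otherwise, and bars are standard errors. All called members drawn lie above 0, and the Sm genes hold the largest value, 0.99.

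The Sm proteins, which form the ring around most spliceosomal small nuclear RNAs, had a class median log2 fold change of 0.64 over 8 genes, of which 7 rose. With offsets for gene length, described further on, this median was 0.38 and 4 of the 8 rose. Snrpd3 (chromosome 10, 75518042 to 75535440, mm10) stood at 26.5 and 23.6 CPM in wild-type libraries against 51.2 and 48.7 CPM in Dis3-/- libraries. Both Dis3-/- values lay well above both wild-type values, with a log2 fold change of 0.99 ± 0.14 (SE; edgeR adjusted p = 2.05e-04). Snrpd1, whose product pairs with that of Snrpd2 in the ring, stood at 22.6 and 23.9 CPM against 46.4 and 39.5 CPM (log2 fold change 0.88 ± 0.15, SE; edgeR adjusted p = 8.76e-04). Snrpf stood at 42.3 and 44.2 CPM against 80.3 and 67.9 CPM (0.78 ± 0.12, SE; edgeR adjusted p = 5.13e-04). These genes had no overlap between genotypes, although the first Dis3-/- library was the higher one in each. Snrpb, which encodes the SmB protein, stood at 90.2 and 91.6 CPM against 149.7 and 138.8 CPM (0.67 ± 0.09 SE, edgeR adjusted p = 1.45e-04), and had the smallest adjusted p of the class. Snrpe stood at 55.2 and 58.7 CPM against 91.4 and 83.7 CPM (log2 fold change 0.62, edgeR adjusted p = 9.46e-04).

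The other Sm genes changed less or were not called. Snrpd2 stood at 34.1 and 30.9 CPM against 46.4 and 46.5 CPM (log2 fold change 0.51 ± 0.13, SE; edgeR adjusted p = 0.0120). Snrpg stood at 56.7 and 66.9 CPM against 89.4 and 80.7 CPM (0.46 ± 0.11, SE; edgeR adjusted p = 0.00970). Without the second wild-type library Snrpd2 was not called, at a log2 fold change of 0.44 (edgeR adjusted p = 0.069), and without the first Snrpg was not called, at 0.35 (edgeR adjusted p = 0.0834). Snrpn, the copy of Snrpb best known from neurons, was near the detection limit, at 1.3 and 1.59 CPM against 1.01 and 2.34 CPM with overlapping genotypes (edgeR adjusted p = 0.833). Snrpn shares its locus and strand with Snurf, which had counts of 0, 0, 0 and 1. The part of Snrpn values that belongs to either gene is therefore uncertain, and expected counts of Snrpf were also not whole, meaning that some reads were divided with other genes.

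**Figure D2:**
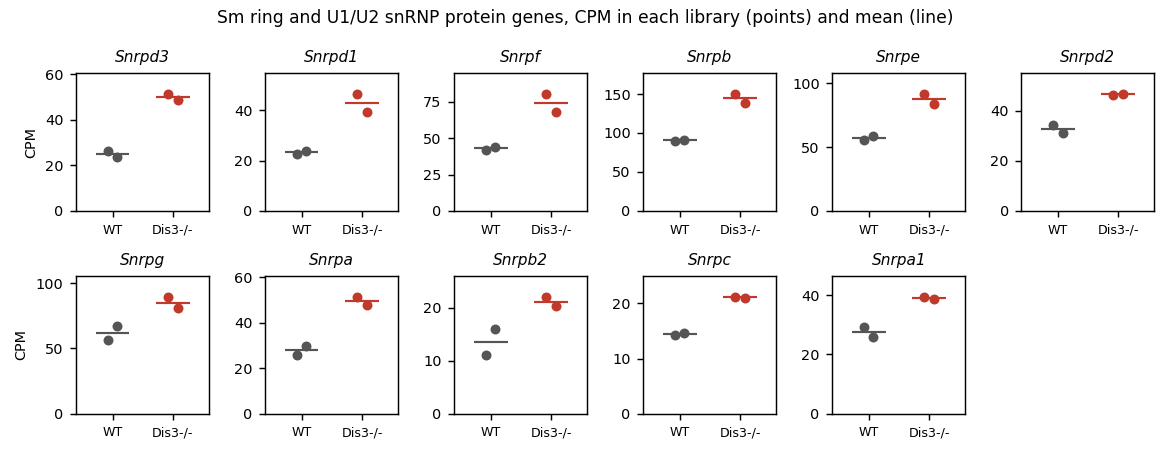
CPM of the 7 Sm genes other than Snrpn and of the 4 U1 and U2 specific genes, with an axis from 0 for each gene. Points are libraries, wild type (WT) and Dis3-/-, and lines are means of 2; both Dis3-/- points lie above both wild-type points in every gene shown.

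All 4 members for proteins specific to the U1 or U2 particle rose, with a class median log2 fold change of 0.60 (0.42 with length offsets, where 1 was called). Snrpa, whose protein binds a loop of U1 RNA, stood at 25.6 and 29.97 CPM in wild-type against 51.2 and 47.6 CPM in Dis3-/- libraries (0.83 ± 0.14, SE; edgeR adjusted p = 8.40e-04). Snrpc, whose U1 protein contacts the 5′ splice site, stood at 14.2 and 14.6 CPM against 21.2 and 21.1 CPM (0.55 ± 0.18, SE; edgeR adjusted p = 0.0443). The U2 proteins showed similar sizes. Snrpb2 stood at 11.1 and 16.0 CPM against 22.0 and 20.3 CPM (0.65 ± 0.21, SE; edgeR adjusted p = 0.0406), and its binding partner Snrpa1 at 29.2 and 25.8 CPM against 39.3 and 38.6 CPM (0.50 ± 0.14, SE; edgeR adjusted p = 0.0210). Genotypes did not overlap in any of the 4. The 3 calls other than Snrpa were close to the threshold: only 1 of the 4 genes, Snrpa, was called by DESeq2, and the Snrpc call was lost whichever library was left out, with log2 fold changes of 0.54 to 0.57 (edgeR adjusted p of 0.104 to 0.131). Expected counts of Snrpa were not whole in 3 libraries. Snrnp70, the gene of another U1 protein, lies outside the naming rule and is named after its values were seen. It stood at 244.8 and 236.9 CPM in wild-type against 222.7 and 208.6 CPM in Dis3-/- libraries. Both Dis3-/- values were lower, and the gene was not called (log2 fold change -0.16, edgeR adjusted p = 0.159).

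SF3A and SF3B proteins form the core of the U2 particle that contacts the branch site. Of 9 SF3 genes, 8 rose and Sf3b1, the largest subunit, did not pass the test. Sf3b5, a small SF3B subunit, stood at 25.0 and 22.0 CPM in wild-type against 34.6 and 37.3 CPM in Dis3-/- libraries (log2 fold change 0.61 ± 0.15, SE; edgeR adjusted p = 0.0101). Sf3a3 stood at 38.6 and 46.3 CPM against 64.7 and 63.4 CPM (0.60 ± 0.12, SE; edgeR adjusted p = 0.00359), and was the SF3 gene with the second smallest adjusted p. Sf3b4 stood at 36.7 and 33.8 CPM against 57.1 and 46.7 CPM (0.56 ± 0.14, SE; edgeR adjusted p = 0.0103). The subunit Sf3b6, which contacts the branch site adenosine, stood at 39.8 and 43.0 CPM against 62.0 and 54.3 CPM (log2 fold change 0.49, edgeR adjusted p = 0.0117). Sf3a2 stood at 33.1 and 33.0 CPM against 46.7 and 43.7 CPM (0.45, edgeR adjusted p = 0.0221).

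The genes of the large SF3 subunits were also measured. Sf3b3 stood at 431.1 and 396.1 CPM against 516.2 and 532.7 CPM (log2 fold change 0.34 ± 0.07, SE; edgeR adjusted p = 0.00346), Sf3b2 at 204.8 and 202.3 CPM against 240.0 and 250.7 CPM (0.27, edgeR adjusted p = 0.0214) and Sf3a1 at 158.4 and 166.8 CPM against 198.0 and 188.7 CPM (0.25, edgeR adjusted p = 0.0393). Sf3b1, the subunit that clamps the branch site helix, stood at 645.4 and 651.5 CPM against 625.0 and 618.5 CPM. Its Dis3-/- values lay just below both wild-type values (log2 fold change -0.06 ± 0.06, SE; edgeR adjusted p = 0.526), and its estimate was 0.05 with offsets for gene length. With the same offsets Sf3b3, Sf3a1 and Sf3b2 stood at 0.41, 0.33 and 0.29 and stayed called, and Sf3b5, Sf3b6 and Sf3a2 stood at 0.34, 0.32 and 0.37 and were not called (edgeR adjusted p = 0.129, 0.0831 and 0.0576). DESeq2 called 3 of the 9 SF3 genes, and only Sf3a3 and Sf3b3 kept their edgeR call whichever library was left out.

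Promoter sequence was examined for the members because they rose together. RefSeq (GRCm38.p6, the assembly of mm10) gave 250 bases before the start of transcription for 59 of the 68 members. The letters CCGGAAG, a core of the sites bound by ETS factors, were found on either strand in 18 of 59 members (30.5%), in 16.1% of 9331 tested genes with a promoter and in 6.91% of all 32851 promoters of the same length. Members and tested genes count with a match at any of their starts, and promoters count singly. Counted by gene, 7.83% of 27025 genes held the letters. SF3 genes held them in 6 of 7, and these stretches are shown because no other class had so high a share. None of the 8 motifs searched contains another, and the stretches were chosen after the counts were seen. Capitals mark CCGGAAG, or CTTCCGG on the other strand, at the match nearest to the start. The second match of Sf3b6 lies in its stretch in lower case. Each stretch runs 5′ to 3′ on the gene's strand and ends before the annotated start.
Sf3a1 (chr11:4160317-4160353, plus strand, match 7 bases before the start): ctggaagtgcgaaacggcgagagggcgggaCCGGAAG
Sf3a2 (chr10:80798629-80798695, plus strand, match 76 bases before the start): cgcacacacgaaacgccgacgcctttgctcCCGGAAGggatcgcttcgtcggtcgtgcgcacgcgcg
Sf3a3 (chr4:124714741-124714807, plus strand, match 90 bases before the start): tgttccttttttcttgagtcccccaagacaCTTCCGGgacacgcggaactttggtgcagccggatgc
Sf3b2 (chr19:5295458-5295498, minus strand, match 11 bases before the start): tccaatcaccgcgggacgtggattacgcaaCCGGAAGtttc
Sf3b3 (chr8:110846996-110847053, minus strand, match 229 bases before the start): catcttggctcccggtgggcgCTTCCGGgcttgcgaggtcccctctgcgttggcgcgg
Sf3b6 (chr12:4817508-4817574, plus strand, nearest of 2 matches 70 bases before the start): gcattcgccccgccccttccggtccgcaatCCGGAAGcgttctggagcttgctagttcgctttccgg
All 6 of these genes rose, as did 8 of the 9 SF3 genes in all. Of the 18 members with a match 13 rose, and of the 40 tested members whose promoter held none 22 rose; Srsf5, with the lowest estimate of all, has a match. The share of matches is a description of letters, and binding was not measured here.

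The U2AF heterodimer recognises the polypyrimidine tract and the AG at the end of the intron. Of 3 genes, 2 rose. U2af1, the small subunit that reads the AG, stood at 43.9 and 46.9 CPM in wild-type against 72.4 and 60.3 CPM in Dis3-/- libraries (log2 fold change 0.55 ± 0.12, SE; edgeR adjusted p = 0.00625). U2af2, the large subunit, stood at 205.7 and 176.9 CPM against 233.1 and 229.5 CPM (0.27 ± 0.09, SE; edgeR adjusted p = 0.0365). Without the second wild-type library U2af2 was not called, at a log2 fold change of 0.17 (edgeR adjusted p = 0.296). U2af1l4, a copy related to U2af1, stood at 15.3 and 12.2 CPM against 17.8 and 15.8 CPM and was not called (0.29 ± 0.21, SE; edgeR adjusted p = 0.353).

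Prpf proteins act in particle assembly and in activation of the spliceosome. Of 13 genes, 4 rose, 0 fell and 9 did not pass, with a median log2 fold change of 0.22. Prpf19, a ubiquitin ligase that leads the complex activating the spliceosome, stood at 139.5 and 145.4 CPM against 208.2 and 196.7 CPM (0.51 ± 0.08, SE; edgeR adjusted p = 6.69e-04). Prpf8, the large U5 protein at the catalytic centre, had the highest CPM of all members, with 867.5 and 882.2 CPM in wild-type against 1150 and 1041 CPM in Dis3-/- libraries (0.32 ± 0.06, SE; edgeR adjusted p = 0.00238). Neither gene overlapped between genotypes. Prpf31, which joins U4/U6 to U5, stood at 51.5 and 52.6 CPM against 65.0 and 67.3 CPM (log2 fold change 0.35, edgeR adjusted p = 0.0350), a call lost whichever library was left out, with log2 fold changes of 0.32 to 0.37. Prpf39, related to a U1 protein of yeast, had the lowest estimate of the class, at 85.4 and 94.5 CPM against 77.0 and 79.0 CPM, and did not pass (-0.21 ± 0.10, SE; edgeR adjusted p = 0.153). Prpf3 and Prpf4 of the U4/U6 particle had log2 fold changes of 0.38 (edgeR adjusted p = 0.0711) and 0.25 (edgeR adjusted p = 0.167). The kinase gene Prpf4b stood at 0.22 (edgeR adjusted p = 0.0802) and passed with length offsets (0.29, edgeR adjusted p = 0.0252). Prpf38a, Prpf6, Prpf38b, Prpf18 and Prpf40b had log2 fold changes of 0.16, 0.11, 0.07, -0.09 and -0.10 and were not called. On the log2(TPM + 1) scale, where the median of all genes was -0.11, Prpf38b stood at -0.04.

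SR proteins bind exonic sequence and help to recruit the U1 and U2AF factors. Of 11 Srsf genes 10 were tested, 6 rose and 0 fell, with a median log2 fold change of 0.37. Srsf1 (chromosome 11, 88046499 to 88053757, mm10), the SR protein first known as ASF/SF2, stood at 287.7 and 283.0 CPM in wild-type against 492.6 and 452.9 CPM in Dis3-/- libraries. The genotypes were far apart relative to their replicates, and the log2 fold change of 0.73 ± 0.07 (SE; edgeR adjusted p = 2.03e-05) had the smallest adjusted p of all members. Srsf3, which also takes part in mRNA export, stood at 373.0 and 372.1 CPM against 583.3 and 483.8 CPM (0.52 ± 0.08, SE; edgeR adjusted p = 7.41e-04). Srsf10 stood at 148.4 and 132.9 CPM against 195.8 and 199.5 CPM (0.49 ± 0.09, SE; edgeR adjusted p = 0.00115). Srsf9 stood at 59.1 and 61.0 CPM against 85.2 and 74.8 CPM (0.41 ± 0.11, SE; edgeR adjusted p = 0.0143). None of these overlapped between genotypes. Srsf9 was not called with length offsets (0.25, edgeR adjusted p = 0.115) or by DESeq2 (adjusted p = 0.0759). Its edgeR call did not hold in every fit with a library left out.

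Srsf2, often mutated in myeloid malignancy in humans, stood at 224.5 and 213.6 CPM against 302.8 and 275.1 CPM (log2 fold change 0.40 ± 0.08, SE; edgeR adjusted p = 0.00284), and Srsf7 at 220.9 and 227.0 CPM against 282.8 and 285.5 CPM (0.34 ± 0.07, SE; edgeR adjusted p = 0.00466). Srsf2 overlaps Mfsd11 and Mettl23 on the other strand, and without strand their reads cannot be told apart. Srsf6, Srsf4 and Srsf11 had log2 fold changes of 0.12 (edgeR adjusted p = 0.264), 0.08 (edgeR adjusted p = 0.595) and 0.03 (edgeR adjusted p = 0.858). On the log2(TPM + 1) scale, where the median of all genes was -0.11, Srsf4 stood at -0.03 and Srsf11 at -0.09. Srsf5 was the tested member with the lowest estimate, at 140.0 and 142.2 CPM in wild-type against 135.4 and 105.2 CPM in Dis3-/- libraries (-0.23 ± 0.11, SE; edgeR adjusted p = 0.140). Its second Dis3-/- library was low: without it the log2 fold change was -0.06 (edgeR adjusted p = 0.774), and without the first Dis3-/- library it was -0.42 (edgeR adjusted p = 0.00309). Srsf12 was at 0.159 to 1.09 CPM and was not tested.

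**Figure D3:**
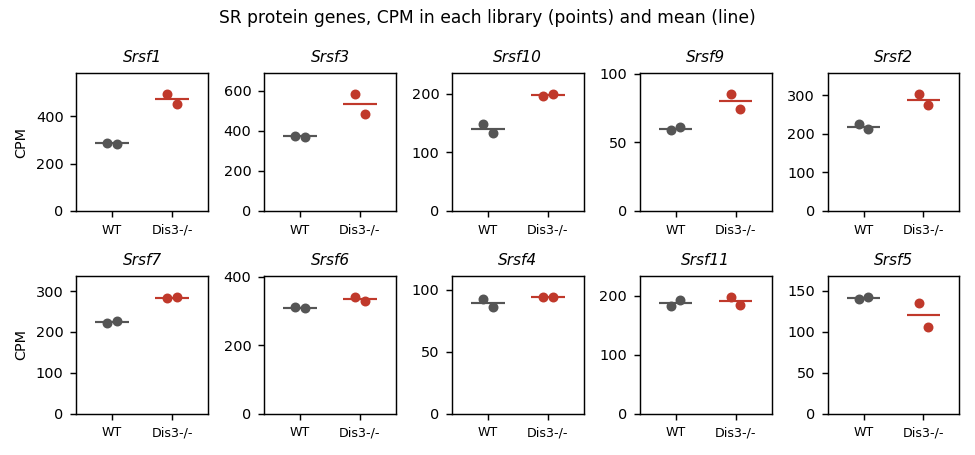
CPM of the 10 tested Srsf genes, with an axis from 0 for each gene. Points are libraries, wild type (WT) and Dis3-/-, and lines are means of 2; the Srsf1 means are farthest apart in relative terms, and both Dis3-/- points of Srsf5 lie below both wild-type points, the second at 105.2 CPM.

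Of 20 Hnrnp genes, 10 rose and 0 fell, with a median log2 fold change of 0.27, and all 20 estimates were above 0 in the edgeR fit. Hnrnpu, a chromatin-bound protein also called SAF-A, stood at 493.4 and 485.6 CPM in wild-type against 722.6 and 704.1 CPM in Dis3-/- libraries (0.54 ± 0.06, SE; edgeR adjusted p = 6.45e-05). Hnrnpa2b1, an RNA-binding protein of the A/B family, stood at 369.8 and 374.2 CPM against 573.4 and 509.4 CPM (0.54 ± 0.07, SE; edgeR adjusted p = 2.08e-04). Hnrnpdl had the largest estimate of the class, with 105.7 and 103.1 CPM against 141.5 and 168.6 CPM (0.57 ± 0.10, SE; edgeR adjusted p = 9.43e-04). Its relative Hnrnpd (AUF1), which binds AU-rich elements, stood at 158.4 and 159.8 CPM against 225.2 and 221.1 CPM (log2 fold change 0.49, edgeR adjusted p = 6.46e-04). Hnrnpab stood at 197.2 and 192.5 CPM against 272.9 and 264.3 CPM (0.46, edgeR adjusted p = 7.86e-04). Genotypes did not overlap in any of these. Hnrnpr, Hnrnpf and Hnrnpl rose with log2 fold changes of 0.42, 0.38 and 0.35 (edgeR adjusted p of 0.00203, 0.00125 and 0.00392). Hnrnpa1 (778.3 and 778.3 CPM against 946.6 and 931.9 CPM) and Hnrnpa3 both had a log2 fold change of 0.27 (edgeR adjusted p = 0.00453 and 0.0144). Expected counts of Hnrnpf, Hnrnpa1 and Hnrnpa3 were not whole, so that some of their reads were shared with other genes.

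The 10 Hnrnp genes that did not pass included abundant ones. Hnrnpk, a poly(C)-binding protein, stood at 670.7 and 668.5 CPM against 779.9 and 735.5 CPM (log2 fold change 0.18 ± 0.06, SE; edgeR adjusted p = 0.0562). Hnrnpc, Hnrnpm, Hnrnpul1 and Hnrnpul2 had log2 fold changes of 0.21 to 0.24 with edgeR adjusted p of 0.0631, 0.0936, 0.0627 and 0.0522. These values were close to the threshold, and Hnrnpk, Hnrnpc and Hnrnpm passed it without the second Dis3-/- library (edgeR adjusted p = 0.0345, 0.0468 and 0.047), and Hnrnpul1 without the first (edgeR adjusted p = 0.0261). Hnrnph1, which binds runs of G, stood at 353.9 and 347.9 CPM against 365.3 and 359.4 CPM (0.05 ± 0.07 SE, edgeR adjusted p = 0.680). On the log2(TPM + 1) scale the Hnrnph1 estimate was -0.06, beside a median of -0.11 over all genes. Hnrnph3, of the same family, was at 31.8 and 25.7 CPM against 31.6 and 28.3 CPM with overlapping genotypes (log2 fold change 0.05, edgeR adjusted p = 0.844). Hnrnpll, Hnrnpa0 and Hnrnph2 had log2 fold changes of 0.28, 0.19 and 0.18 (edgeR adjusted p = 0.123, 0.104 and 0.179), and Hnrnpll passed without the first wild-type library (edgeR adjusted p = 0.0348). Of the members that rose, 8 overlap a gene on the other strand and so may hold its reads: Snrpd3, Snrpf, Snrpa, Sf3a2, Sf3b3, Srsf2, Hnrnpu and Hnrnpab.

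A second sequence feature is shown for some of the members with calls that held in every alternative. The letters CCAAT, read on either strand, were found in 29 of 59 members (49.2%), in 40.6% of tested genes with a promoter and in 33.8% of all promoters of that length. Counted by gene, 37.5% of all genes with a promoter held them. Hnrnp genes held them in 13 of 18 and Sm genes in 4 of 6. Of the 29 members with a match 19 rose, and of the 29 tested members whose promoter held none 16 rose. Among members with calls that held in every alternative, Hnrnpa2b1 and Prpf19 also held a match, and Snrpa, Srsf1 and Hnrnpu held none. Hnrnpab, Snrpd3 and Snrpf each held more than 1 match, and the match nearest to the start is printed, with capitals marking CCAAT or, on the other strand, ATTGG. A further match within the Snrpf stretch is in lower case.
Hnrnpab (chr11:51606888-51606952, minus strand, nearest of 3 matches 41 bases before the start): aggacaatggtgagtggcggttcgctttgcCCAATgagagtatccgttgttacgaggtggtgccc
Snrpd3 (chr10:75517854-75517918, plus strand, nearest of 2 matches 158 bases before the start): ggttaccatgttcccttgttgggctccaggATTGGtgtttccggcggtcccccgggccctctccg
Snrpf (chr10:93589678-93589742, minus strand, nearest of 3 matches 54 bases before the start): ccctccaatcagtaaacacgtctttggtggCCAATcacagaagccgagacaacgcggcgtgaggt
Members held TTCCCGC, a core of E2F sites, in 11 of 59 (18.6%, against 8.14% of tested genes and 3.82% of all promoters). They held GGGCGG (GC-box) in 67.8% (63.9% of tested genes, 32.7% of all promoters), CACGTG (E-box) in 11.9% (10.1% and 6.02%), TATAAA in 10.2% (7.63% and 12.4%), GCGCATGC (NRF1) in 6.78% (5.23% and 2.26%) and AAGATGGC (YY1) in 1.69% (2.45% and 1.56%). Each was searched on both strands, and a match is not a bound site. Shares of all promoters count single starts, and those of members and tested genes count a gene with a match at any start.

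Gene length moved with the fold changes. Relative length was the expected count over TPM, divided by the median over tested genes. The Sm genes were short, at a median of 0.208 times the median gene, and SF3 genes stood at 0.597, Srsf genes at 0.932, Hnrnp genes at 0.940 and Prpf genes at 1.22 times. Over all 12244 tested genes Spearman's rho between log2 fold change and relative length was -0.25, over the 67 members it was -0.44 and over the 30 tested Srsf and Hnrnp genes it was 0.24. These are descriptions across genes measured in the same 4 libraries. Among members shorter than the median gene 28 of 42 rose (66.7%), and among longer ones 13 of 25 rose (52%), where 15.8% of all shorter and 9.72% of all longer genes rose. Of 10 bins of equal size by length, the shortest held 12 members of which 11 rose, beside 23.8% of its genes, and the longest held 5 of which 4 rose, beside 8.49%.

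**Figure D4:**
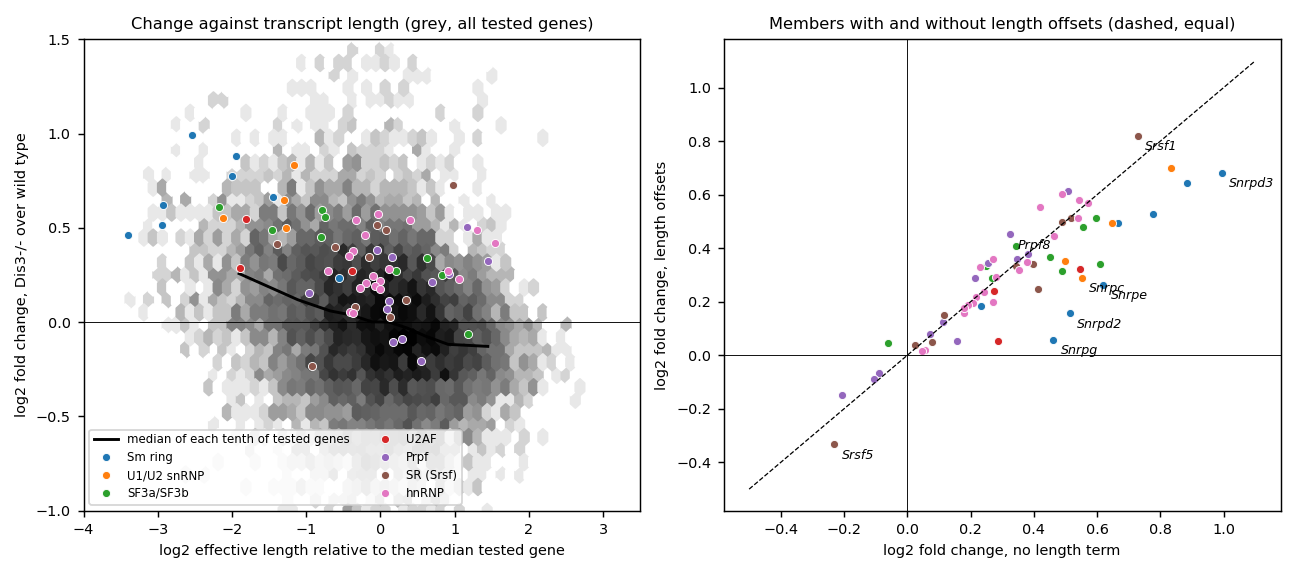
Log2 fold change (Dis3-/- over wild type) against log2 relative gene length (left) for the tested members, except 1 not reported here, coloured by class, over the density of all tested genes in grey, with a line through the medians of 10 length bins; genes beyond the axis limits are not drawn. The right panel sets the members' log2 fold changes without and with length offsets against each other, and the dashed line marks equal values. The median of all genes goes from 0.26 in the shortest bin to -0.13 in the longest, and the right panel shows Snrpg, Snrpd2 and Snrpe well under the dashed line.

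With an offset per library for this dependence on length, 31 members rose and 1, Srsf5, fell (log2 fold change -0.33, edgeR adjusted p = 0.0374), where 11.8% of all genes rose and 8.98% fell. The median over members was 0.32. The offsets mattered by class. Among the Sm genes 4 of 7 calls held: Snrpd3 had a log2 fold change of 0.68 (edgeR adjusted p = 0.00283), Snrpd1 of 0.64, Snrpf of 0.53 and Snrpb of 0.49, while Snrpg stood at 0.06 (edgeR adjusted p = 0.760), Snrpd2 at 0.16 (edgeR adjusted p = 0.439) and Snrpe at 0.26 (edgeR adjusted p = 0.0849). Of the U1 and U2 specific genes only Snrpa stayed called (0.70, edgeR adjusted p = 0.00276), of SF3 genes 5 were called and of U2AF genes 0. Hnrnp genes went from 10 to 11 calls and Prpf genes from 4 to 5. Srsf genes went from 6 to 5 calls, with Srsf9 no longer called. Longer members gained in size, among them Prpf19 at 0.61 (edgeR adjusted p = 1.67e-04) and Prpf8 at 0.45 (edgeR adjusted p = 2.79e-04).

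Levels between genes were compared as TPM, which is per length. Summed over members, TPM was 11560 and 11360 in wild-type against 13940 and 13510 in Dis3-/- libraries. Hnrnpa1 had the highest mean, 1110 TPM in wild-type and 1237 TPM in Dis3-/- libraries. The Sm sum was 1703 and 1778 TPM against 2570 and 2435 TPM, and within it the order by mean wild-type level was Snrpg (569.1 TPM), Snrpe (378.3), Snrpd2 (218.5), Snrpb (217.4), Snrpf (150.5), Snrpd3 (126.4), Snrpd1 (78.2) and Snrpn (1.78). Snrpd2 and Snrpb differed in wild-type libraries by less than the spread of Snrpd2, and in Dis3-/- libraries they stood at 292.1 and 320.0 TPM. Snrpd3 rose from 126.4 to 235.2 TPM and was within the spread of Snrpf at 239.6 TPM. Hnrnp genes summed to 5353 and 5206 TPM against 6103 and 6025 TPM, Srsf genes to 1940 and 1889 against 2306 and 2143, SF3 genes to 1093 and 1063 against 1235 and 1252, and Prpf genes to 857.6 and 839.8 against 938.3 and 911. In each of these classes both Dis3-/- sums lay above both wild-type sums. The smallest sums were those of the U2AF genes (422.2 and 382.3 against 498.9 and 468.4) and of the U1 and U2 specific genes (190.3 and 201.2 against 284.3 and 281).

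**Figure D5:**
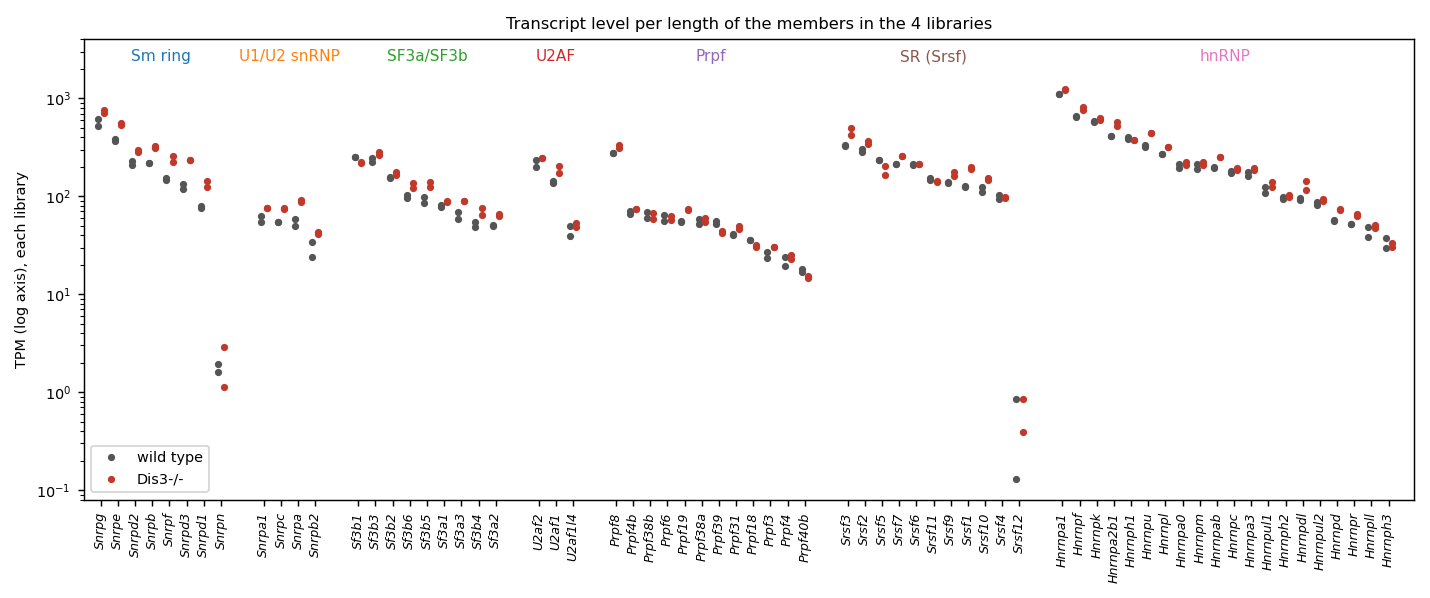
TPM on a log axis of the members, except 1 not reported here, in each of the 4 libraries, grouped by class and ordered by level, with wild-type points in grey and Dis3-/- points in red. Hnrnpa1 is highest, and Snrpn and Srsf12 lie far below the other members of their classes.

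Other splicing genes were counted from lists in the same fit. Beside each list stand the 12.7% of all tested genes that rose and the 10.2% that fell. Of 64 further genes of the major spliceosome, 16 rose and 0 fell, with a median log2 fold change of 0.24. Examples were the cyclophilins Ppih (0.86, edgeR adjusted p = 0.00242) and Ppil1 (0.78, edgeR adjusted p = 0.00113), the SF3B subunit Phf5a (0.75, edgeR adjusted p = 0.00291), the U5 GTPase Eftud2 (0.44, edgeR adjusted p = 0.00142) and the helicase Ddx39b (0.39, edgeR adjusted p = 0.00164). Of 20 genes for snRNP assembly and cap binding, 8 rose and 0 fell, including Gemin4 and Gemin5 of the SMN complex (0.68 and 0.41, edgeR adjusted p = 0.00130 and 0.00782), Clns1a, which hands Sm proteins to that complex (0.51, edgeR adjusted p = 8.68e-04), and the cap-binding genes Ncbp1 and Ncbp2 (0.47 and 0.63, edgeR adjusted p = 0.00276 and 0.00422). The 14 tested genes of the minor spliceosome, which removes a rare class of introns, gave 0 calls in either direction by edgeR, DESeq2 or limma-voom and 0 at an unadjusted edgeR p below 0.05, with a median of 0.06. Wild-type means of these 14 genes ran from 3.485 CPM (Snrnp35, SE of the log2 fold change 0.39) to 48.15 CPM (Zrsr2, SE 0.12). At the shares over all tested genes, a list of 14 would also hold few calls. The difference between the minor list and the members was not tested.

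Among 26 tested SR-related genes, 3 rose and 1 fell, with a median of 0.02, and the share that rose was near the 12.7% of all tested genes. Pnn (0.52, edgeR adjusted p = 0.00267), Rnps1 (0.44, edgeR adjusted p = 0.00245) and Tra2b (0.29, edgeR adjusted p = 0.0131) rose, and the SR protein kinase Srpk2 fell (-0.35, edgeR adjusted p = 0.0163). Of 43 other RNA-binding genes, 15 rose and 3 fell, with Ybx1 (0.71, edgeR adjusted p = 6.45e-05), Fubp1 (0.58, edgeR adjusted p = 1.28e-04), Rbmxl1 (0.79, edgeR adjusted p = 5.58e-04) and the splicing repressor Ptbp1 (0.45, edgeR adjusted p = 6.87e-04) among those that rose. The 3 that fell, a share below the 10.2% of all tested genes, were Cirbp, Mbnl2 and Rbm39, named after their values were seen. Of all tested genes 12.7% rose. Of 10 genes of nonsense-mediated decay, the pathway that degrades transcripts with a premature stop, 2 rose and 1 fell, with a median of -0.11, beside 12.7% and 10.2% of all tested genes. Upf1 (0.41, edgeR adjusted p = 0.00241) and Smg5 (0.30, edgeR adjusted p = 0.0277) rose and Smg6 fell (-0.27, edgeR adjusted p = 0.0289).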

How the data were processed

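Each of 4 RamDA-seq libraries came from 100 sorted cells. Per the submitters' processing notes the build was mm10 and the tools included RSEM 1.3.3, STAR 2.7.8a and Trim Galore 0.6.6. The annotation and strand setting, not given in the sources used here, stay unknown. The authors deposited expected counts per gene, not normalized, and a second table with TPM values, scaled by the authors for gene length to a common total. Rounded expected counts went into edgeR 4.0.16 under R version 4.3.3 (filterByExpr, minimum count 10 and minimum total 15, TMM scaling, glmQLFit, 2-sided glmQLFTest) with Benjamini-Hochberg adjustment over all 12244 tested genes at a threshold of 0.05. The SE is the absolute log2 fold change divided by the root of F. P-values measure the spread between these libraries, which may be technical.

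Alternatives were DESeq2 1.42.0, limma 3.58.1 (voom, and log2(TPM + 1) or log2(TPM + 0.1)), other size factors, no filter on low counts, robust fitting, no Rn45s and Lars2, length offsets (loess, span 0.5), a replicate block and each library left out. The members and gene lists were chosen with earlier results of these data known. Every member may be named, except items that are not reported here, with up to 5 genes of smallest p per list. Of the 68 members, 57 had whole counts in all libraries (exact). Of the same 68, 15 overlap a gene on the other strand. Gene coordinates are from RefSeq, gene strands and overlapping genes from GENCODE M21, and promoters from RefSeq GRCm38.p6. The procedure was run on simulated counts drawn with the dispersions of this same fit. They held no dependence on gene length, so that run cannot show how calls fare under such dependence.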

Additional observations from a re-analysis of the deposited data

How the results depend on the processing

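The count of 41 members that rose fell to 13 with log2(TPM + 1) and no filter on low values and was 30 to 36 with a library left out, where the lone library of a genotype is assumed to vary like the others. Calls for lower members numbered 1 with length offsets and 0 to 1 with a library left out. In 10 members the call held in all 16 alternatives: Snrpd3, Snrpd1, Snrpf, Snrpb, Snrpa, Prpf19, Srsf1, Hnrnpu, Hnrnpa2b1 and Hnrnpab. Among genes of the other lists, 44 rose (28 with log2(TPM + 1), 28 with log2(TPM + 0.1), 11 without the filter on TPM, 33 to 45 with a library left out) and 5 fell (8 with no filter on low counts, 8 with robust fitting, 2 with DESeq2, 2 with unfiltered TPM, 3 to 7 with a library left out). Over all genes 1561 rose (919 with DESeq2, 479 with unfiltered TPM, 1226 to 1319 with a library left out) and 1250 fell (651, 471 and 886 to 1060). Higher genes made up 55.5% of calls on counts, 42.1% with log2(TPM + 1) and 42.4% with log2(TPM + 0.1), where the median of all genes was -0.11. Relative to that shift the members' median with log2(TPM + 1) was 0.34. The replicate block gave 38 higher members and lost Prpf31, Sf3a1 and Snrpc; the labels do not say that replicate numbers pair libraries, and same-numbered libraries' deviations correlated at -0.03 over all genes and 0.08 over members.

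Signs turned in 6 members without a call. On the TPM scales (pseudocount 1, pseudocount 0.1, no filter) Hnrnph1 was -0.064, -0.0642 and -0.064, Hnrnph3 -0.049, -0.0501 and -0.049, Prpf38b -0.0382, -0.0388 and -0.0382, Srsf11 -0.0858, -0.0863 and -0.0858, and Srsf4 -0.0303, -0.0306 and -0.0303. With a library left out Hnrnph3 was -0.0908 to 0.221 (-0.023 without the first Dis3-/- library), Prpf38b -0.0177 to 0.167 (-0.0019 without the second Dis3-/- library) and Srsf11 -0.0219 to 0.0785 (-0.0083 without the first wild-type library). Sf3b1 was 0.0464 with length offsets. The median of all genes with log2(TPM + 1) was -0.11. Relative to that median Hnrnph1 stood at 0.043, Hnrnph3 at 0.058, Prpf38b at 0.069, Srsf11 at 0.021 and Srsf4 at 0.077. The cause of the sign changes was not tested. With 2 libraries per genotype, low-count members such as Snrpc and Snrpb2 have SEs of 0.18 and 0.21, and leaving out a single library can end their calls.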

Other observations

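Ratios between members of the same library do not depend on the scaling of libraries, and the pairs were picked with these values in view. The TPM ratio of Srsf1 to Srsf5 was 0.554 and 0.533 in wild-type libraries against 0.973 and 1.15 in Dis3-/- libraries. Within the SF3B complex the ratio of Sf3b3 to Sf3b1 was 0.972 and 0.884 against 1.2 and 1.25. The ratio of Hnrnpa2b1 to Hnrnph1 was 1.02 and 1.05 against 1.54 and 1.39, and that of Prpf19 to Prpf39 was 1.06 and 1 against 1.76 and 1.62. Genotypes did not overlap in any of these ratios. Each pair set a member called higher over one that was not called, so this separation followed from the choice of pairs. No test was run on the ratios, and no share over other pairs of genes was computed.

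Few reads fell on the small nuclear RNA genes looked up. Rnu11 had counts of 0 and 1 in wild-type against 3 and 5 in Dis3-/- libraries, Rnu12 of 2 and 2 against 0 and 1, and Rnu6 was at 0 in all 4 libraries. Rnu11 and Rnu12 belong to the minor spliceosome, and the RNAs of U1, U2, U4 and U5 were not analysed here.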
